A study of Mus musculus with 2 samples.

Results

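Nuclear genes for respiratory complexes I, II, III and V and for cytochrome c were compared between the livers of wild-type mice and of mice lacking PPARα (Ppara-null), both fed fenofibrate. The genes were taken by a rule on the symbol, set with earlier results of these data known. The symbol starts with Nduf, Uqcr or Atp5, or is Sdha, Sdhb, Sdhc, Sdhd, Cyc1 or Cycs. This rule takes 75 of the 18193 genes named on the array, and 149 of the 34945 probe sets that carry 1 gene symbol. By role they are 66 subunit genes (35 of complex I, 4 of complex II, 9 of complex III, 17 of complex V and cytochrome c itself), 8 complex I assembly factors of the Ndufaf series, and Ndufa4l2, a relative of Ndufa4. A further 10 probe sets carried several symbols and were not used; among the subunits, Ndufa11 and Ndufs6 were reached only by such probe sets, and Ndufb4 mainly by them.

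The respiratory chain sits in the inner mitochondrial membrane. Complex I takes electrons from NADH and complex II takes them from succinate, both passing them to coenzyme Q; complex III moves them on to cytochrome c, and complex V uses the proton gradient to make ATP. In hepatocytes, fatty acid oxidation feeds this chain, through NADH and also through the electron transfer flavoprotein (ETF), which reduces coenzyme Q by way of its own dehydrogenase. PPARα is a nuclear receptor that switches on genes of fatty acid oxidation in the liver, and its ligands include fenofibrate, a drug given to lower blood lipids.

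The study used male 129SvEJ mice aged 8 weeks. Wild-type and pparalpha-/- animals received the same chow, with 0.2% fenofibrate, over 7 days, and liver RNA of 3 animals was pooled per genotype for 1 short-oligonucleotide array each. There are thus 2 arrays, 1 per group. Mice without the drug were not analysed here, so a ratio of the arrays joins any difference between the genotypes that exists without fenofibrate with any difference in the response to it. How the null allele was made, and in which cells it acts, is not given in the sources used here. With 1 pool per genotype there is no replicate check of any difference, no test was possible, and the number of arrays limits the precision; the size of each difference is given instead. In whole liver, fewer cells of a type and less RNA per cell cannot be told apart.

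Values are signals, the array's linear brightness units. A log2 ratio is the wild-type signal over the null signal, so a positive value means higher in wild type. A gene with several probe sets is represented by its brightest, and it counted as measured when at or above a floor on both arrays, the floor being the median signal over all probe sets other than controls (287.8 in wild type, 269.4 in null). By that standard 73 of the 75 genes were measured; Ndufb4 (103.4 and 220.4) and Ndufa4l2 (39.3 and 250.9) were under the floor on both arrays and have no ratio here. For Ndufb4 this is the reading of 1 dim probe set: those shared with its copies Ndufb4b and Ndufb4c were bright, at 30529 in wild type and 27758 in null and at 18397 and 17921, so its low value here does not show a low transcript level. Levels of different probe sets are not comparable with each other, only the same probe set between arrays.

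Over all 10060 named genes measured on both arrays, the median log2 ratio was -0.02 and the middle 50% of genes ran from -0.30 to 0.28. The best probe set of Ppara itself read 7957 in wild type and 3414 in null, and its other 2 probe sets were also lower in null; which part of the transcript the deletion removes relative to these probe sets is not known here. All 9 measured hepatocyte markers were far above the floor on both arrays, with a median log2 ratio of -0.26. Cholangiocyte (0 of 5 named genes on both arrays) and adipocyte markers (0 of 4) were not measured on both. Of macrophage markers, 4 of 6 were measured on both, with a median of -0.63, while Cd68 was above the floor in wild type only (373.5 and 204.3). Of endothelial markers, 5 of 6 were measured, with a median of -0.39, 3 of them negative and 2 positive. The other, Pecam1, was above the floor in wild type only (636.9 and 228.0). Of stellate cell markers 4 of 6 were measured, with a median of -0.06. Of red cell markers 1 of 4 was measured on both, Alas2, with -0.75. Hba-a1 was above the floor in wild type only and Slc4a1 in null only.

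Of the 73 measured members, 62 (84.9%) were higher in wild type and 11 were lower, where 47.8% of all named genes had a positive log2 ratio. The differences were small. The median log2 ratio was 0.16, that is 1.12-fold, and the members ran from -0.18 to 0.86 with a standard deviation of 0.18 across genes, against 0.54 across all named genes. A wild-type signal at least 1.5-fold higher was seen for 3 members, or 4.11%, where the background was 11.5%; at least 1.5-fold lower for 0 members, where it was 10.2%. A difference of 2-fold was reached by 0 members in either direction, where the backgrounds were 3.61% and 2.24%. At a log2 ratio of 0.32 or more, 13 members (17.8%) were higher and 0 lower by as much, where the backgrounds were 22.5% and 23.8%. The members thus held fewer large differences than all named genes together, and most of them shared a small positive ratio. Against other bright genes, compared below, the shortfall did not hold for higher ratios at the smallest of these thresholds.

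**Figure D1:**
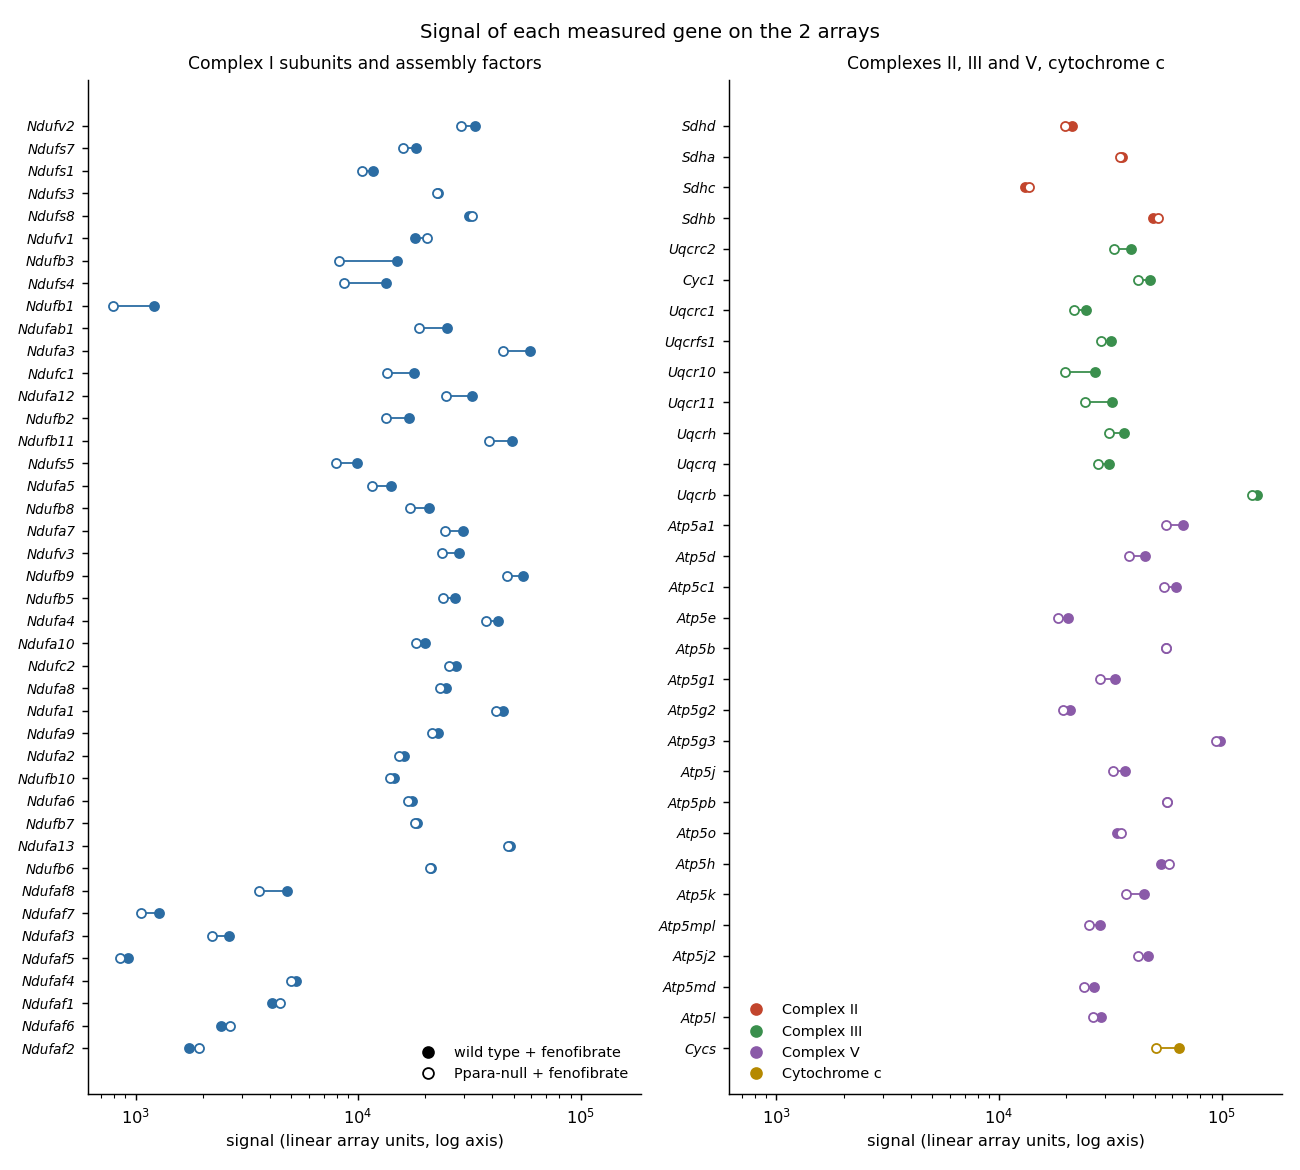
Signal of each measured member on the wild-type array (filled) and on the Ppara-null array (open), in linear array units on a log axis, with complex I and its assembly factors on the left and complexes II, III and V with cytochrome c on the right. For 62 of the 73 genes the filled point lies to the right, and the lines that join the points are short except for Ndufb3, Ndufs4 and Ndufb1.

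Most members are bright on this array, so they were also set beside other bright genes. With a mean signal of at least 10000, 926 other named genes had a median log2 ratio of -0.09, and 39.1% of them were positive. The 63 members with such signals had a median of 0.16, and 55 of them were positive. The 18 hybridization control probe sets, which read RNA added to the hybridization mix, were all lower on the wild-type array, with a median log2 ratio of -0.38; scaling to them would raise every log2 ratio by 0.38 and make all 73 members positive. The distance of a complex from all genes does not move with that scaling, and those distances are given with each complex. Of 6 markers of skeletal and heart muscle, a tissue rich in mitochondria, Acta1, Tnnt3 and Ckm also read higher in wild type. Acta1 read 1224 in wild type and 229.7 in null, Tnnt3 549.0 and 11.6, and Ckm 421.8 and 308.0. Of the 6, 3 were above the floor in wild type and 1 in null, and Myh4, Ttn and Myl2 were under it on both arrays. Their part in the members' ratios was not tested.

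To show what stands before genes with large and small ratios, the 250 bases upstream of the RefSeq transcript start (GRCm38.p6) are printed for 4 members: cytochrome c, the highest complex I genes, and a complex II gene. Each reads 5′ to 3′ on the gene's strand and ends at the base before the start. Capitals mark a match, on either strand, to the NRF1 core GCGCATGC or to the cyclic AMP response element TGACGTCA. The windows are Cycs at chr6:50566570-50566819 (minus strand), Ndufb3 at chr1:58586147-58586396 (plus strand), Ndufs4 at chr13:114388095-114388344 (minus strand) and Sdhb at chr4:140961021-140961270 (plus strand).
Cycs: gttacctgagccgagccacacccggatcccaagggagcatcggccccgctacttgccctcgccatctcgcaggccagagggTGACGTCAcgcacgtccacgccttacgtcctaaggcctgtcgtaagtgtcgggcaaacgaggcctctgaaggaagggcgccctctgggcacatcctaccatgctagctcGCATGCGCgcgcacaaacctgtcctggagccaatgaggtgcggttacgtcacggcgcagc
Ndufb3: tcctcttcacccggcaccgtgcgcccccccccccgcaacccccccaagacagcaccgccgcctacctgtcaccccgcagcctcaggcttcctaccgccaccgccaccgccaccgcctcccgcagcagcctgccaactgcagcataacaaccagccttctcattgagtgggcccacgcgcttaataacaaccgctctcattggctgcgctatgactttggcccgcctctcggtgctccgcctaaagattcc
Ndufs4: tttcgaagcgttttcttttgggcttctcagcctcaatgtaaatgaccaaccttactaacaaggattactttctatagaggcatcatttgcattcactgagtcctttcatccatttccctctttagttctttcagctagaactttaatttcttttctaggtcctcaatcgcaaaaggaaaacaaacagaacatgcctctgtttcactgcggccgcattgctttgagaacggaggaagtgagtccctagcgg
Sdhb: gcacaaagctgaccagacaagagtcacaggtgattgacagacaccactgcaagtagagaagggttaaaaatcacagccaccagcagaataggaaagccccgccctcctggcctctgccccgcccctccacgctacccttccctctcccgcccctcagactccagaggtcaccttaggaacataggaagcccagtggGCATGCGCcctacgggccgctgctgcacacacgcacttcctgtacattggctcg

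The NRF1 core matched 60 bases before the start of Cycs and 54 bases before that of Sdhb, and the cyclic AMP element 169 bases before that of Cycs. Cycs was 1.26-fold higher in wild type and Sdhb was 1.05-fold lower, so these letters stood in genes of either sign. The windows of Ndufb3 and Ndufs4, with the highest ratios of all members on the brightest probe sets, held none of the motifs searched. In windows of 250 bases before to 50 after each start, found for 63 of the 75 members as 68 of 32851 windows, the NRF1 core matched 11 member windows, or 16.2%, against 2.71% of all windows. The core of ETS factors such as GABPA, CCGGAAG, matched 23.5% against 8.86%. The single site of the estrogen-related receptor, AAGGTCA, matched 11.8% against 4.72%, and the cyclic AMP element 5.88% against 1.79%. The direct repeat that PPARα binds as a pair with RXR, searched as AGGTCA and its repeat in the same direction with any 1 base between, matched 0 of the 68 member windows and 0.0396% of all windows. These exact letters are a narrow search of a short window, and a match or its absence describes the window alone. The cyclic AMP element was added after the Cycs window had been read.

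Complex I, the entry point of electrons from NADH, had a median log2 ratio of 0.19 over its 34 measured subunit genes, or 1.14-fold, and 32 of the 34 were higher in wild type. This median lay 0.22 above that of all named genes. The accessory subunits, which surround the catalytic core and are needed for its assembly and stability, were positive in 28 of 28 measured genes, with a median of 0.25. The 6 measured genes of the conserved catalytic core, which carry the flavin and the iron-sulfur clusters, had a median of 0.09, and 4 of the 6 were positive. The order of core and accessory genes turned when a gene was given the median over its probe sets in place of its brightest, with 0.14 for accessory genes (26 of 28 positive) and 0.18 for core genes (5 of 6 positive). Without probe sets ending in _x_at, _s_at or _a_at, which can match several transcripts, both medians were 0.20, with 17 of 20 accessory and 5 of 5 core genes positive. By name block, the medians were 0.11 for 12 Ndufa genes, 0.26 for 10 Ndufb genes, which belong to the membrane arm, and 0.20 for 9 Ndufs and Ndufv genes, most of which belong to the matrix arm.

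**Figure D2:**
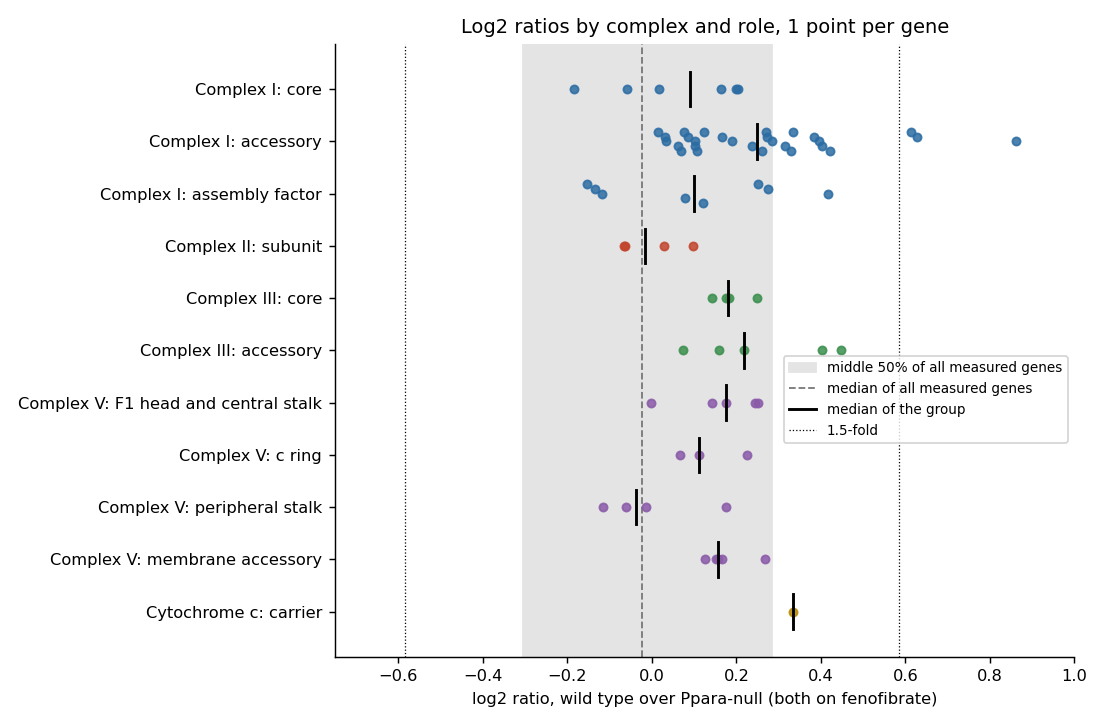
Log2 ratio of wild type over Ppara-null for every measured member, 1 point per gene, in rows by complex and role, with a black bar at each row's median. The grey band is the middle 50% of all measured genes (-0.30 to 0.28), the dashed line their median and the dotted lines 1.5-fold. Accessory subunits of complex I reach 0.86, while the complex II genes lie between -0.07 and 0.10.

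On the brightest probe sets, the members with the largest ratios were all accessory subunits of complex I. Ndufb3, a small membrane-arm subunit, read 14924 in wild type and 8219 in null, a log2 ratio of 0.86 (1.82-fold), from the 1 probe set it has. Ndufs4, a subunit of the matrix arm whose loss causes a mitochondrial encephalopathy in mice and people, read 13410.2 in wild type and 8679 in null, a log2 ratio of 0.63 (1.55-fold). Its other probe sets above the floor gave -0.04 (2118 and 2181) and 0.54 (889.6 and 611.2), so the gene was under 1.5-fold by the median of its probe sets. Ndufb1, another membrane-arm subunit, read 1215 in wild type and 793.9 in null (0.61, 1.53-fold), and its signals were under a floor set at the 75th percentile. Of the 3 genes, only Ndufb3 was measured and at least 1.5-fold higher under all 11 other ways of scaling, setting the floor and choosing probe sets.

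Other accessory genes had log2 ratios over 0.32 and stayed under 1.5-fold. Ndufab1, the mitochondrial acyl carrier protein that also serves fatty acid synthesis in the organelle, read 25057 and 18699 (0.42), though its dimmer probe sets ran from -0.32 to 0.29. Ndufa3 read 59022 and 44668 (0.40), and Ndufc1 read 17781 and 13519 (0.40), both membrane-arm subunits. Ndufa12, at the matrix arm, read 32424 and 24834 (0.38), with 0.05 and -0.06 from its other probe sets. Ndufb2 and Ndufb11, also of the membrane arm, had ratios of 0.33 and 0.33. In these genes the wild-type array was the higher on the brightest probe set, and for Ndufa12 the size rested on that probe set.

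At the other end, the lowest subunit was Ndufv1, which binds NADH and the flavin. It read 17931 in wild type and 20372 in null (-0.18), but its other probe sets gave -0.00 and 0.13. Ndufs8, an iron-sulfur protein of the core, read 31335 and 32637 (-0.06), while its other 5 probe sets were all positive, up to 0.36. Ndufv2, the partner of Ndufv1, read 33405 and 29005 (0.20), and its dimmest probe set gave 0.76 (16871 and 9977). For Ndufv1 and Ndufs8 the sign thus changed from 1 probe set to another. Ndufb8 was the 1 member whose probe sets lay at least 1 log2 unit apart, with 20743 and 17162 (0.27) from the bright one and 337.3 and 587.5 (-0.80) from one near the floor. Ndufa4, which was first counted in complex I and is now also assigned to cytochrome c oxidase, read 42315 and 37725 (0.17).

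The assembly factors, which help build complex I and are not part of it, had a median of 0.10, with 5 of 8 positive. Ndufaf8 was the highest, with 4810.3 and 3603 (0.42), and its dimmer probe set gave 1622.5 and 774.0 (1.07). With the median over probe sets Ndufaf8 was at 0.74, at least 1.5-fold higher. Without probe sets ending in _x_at, _s_at or _a_at it was at 1.07, above Ndufb3 (0.86). The lowest were Ndufaf2, with 1731 and 1925 (-0.15), Ndufaf6, with 2427 and 2664 (-0.13), and Ndufaf1, with 4114 and 4463 (-0.12). The factors therefore lay on either side of zero.

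**Figure D3:**
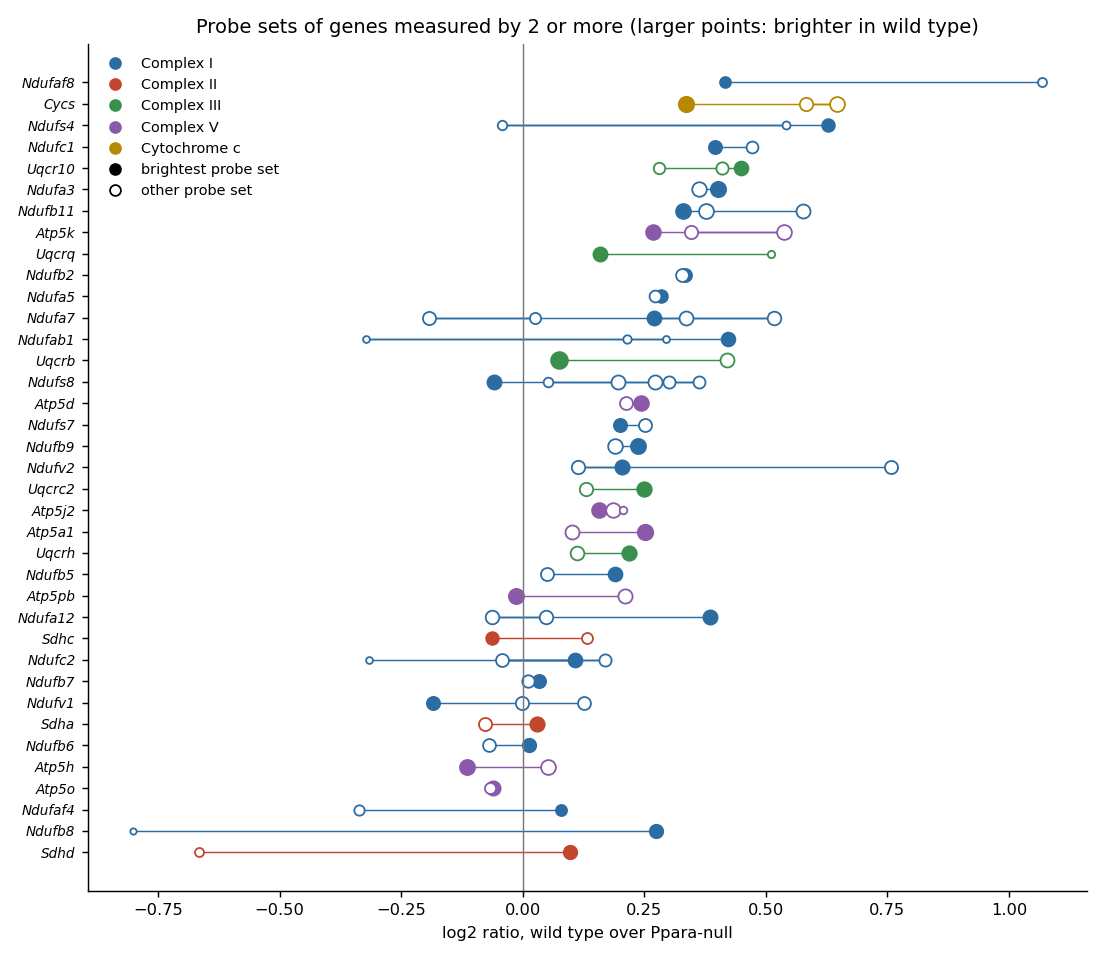
Log2 ratio of wild type over Ppara-null for each probe set above the floor on both arrays, for the 37 members with 2 or more such probe sets, coloured by complex. Filled points are the brightest probe set of a gene, open points the others, and larger points are brighter in wild type. In 21 genes all points lie right of zero, in 15 the signs are mixed, and in Atp5o all lie left of it.

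Different probe sets of a gene give the scatter inside this pair of arrays. It had a pooled standard deviation of 0.23 on the log2 scale over 94 probe sets of 37 members, and it holds nothing of the variation from mouse to mouse or from pool to pool. Of the 73 measured members, 48 had a log2 ratio within 0.23 of zero, so most single ratios were no larger than this scatter. Over all probe sets of members above the floor on both arrays, 106 of 130 were positive, where 47.3% of all such probe sets with 1 symbol were.

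Complex II, succinate dehydrogenase, is also an enzyme of the citric acid cycle. Its 4 genes had a median log2 ratio of -0.02, or 0.01 above all named genes, and they ran from -0.07 to 0.10. Sdha, the flavoprotein that oxidises succinate, read 35740.2 in wild type and 35017 in null (0.03). Sdhb, its iron-sulfur partner, read 49335 and 51671 (-0.07). Sdhc and Sdhd anchor the enzyme in the membrane and bind coenzyme Q; Sdhc read 13026 and 13608 (-0.06) and Sdhd read 21247 and 19869 (0.10). On the brightest probe sets the 4 genes were evenly split about zero. The dimmer probe set of Sdhd gave 1604 and 2545 (-0.67). The second probe sets of Sdha (-0.08) and Sdhc (0.13) also had the other sign. With the median over probe sets, 1 of the 4 genes was positive.

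Complex III, which carries electrons from coenzyme Q to cytochrome c, was higher in wild type for 9 of 9 genes. Its median log2 ratio was 0.18, or 1.13-fold, and lay 0.20 above all named genes. On the brightest probe sets, the largest ratios were those of the smallest subunits. Uqcr10 read 26908 in wild type and 19720 in null (0.45, 1.36-fold), and Uqcr11 read 32125 and 24316 (0.40, 1.32-fold). That order changed without probe sets ending in _x_at, _s_at or _a_at, where Uqcrq (0.51) and Uqcrb (0.42) were above Uqcr10 (0.28). All 3 probe sets of Uqcr10 were positive. The catalytic subunits were closer together. Cyc1, which holds the heme of cytochrome c1, read 47749 and 42076 (0.18). Uqcrfs1, the Rieske iron-sulfur protein, read 31785 and 28798 (0.14). The large core proteins Uqcrc1 and Uqcrc2, which face the matrix, read 24592 and 21757 (0.18) and 39006 and 32813 (0.25). Among the other accessory subunits, Uqcrh, the hinge protein near cytochrome c1, read 36451 and 31327 (0.22). Uqcrq read 31099 and 27845 (0.16), and its dim second probe set gave 582.4 and 408.7 (0.51). Uqcrb, which lies by the site where coenzyme Q binds, was the lowest at 144496 and 137289 (0.07), but its second probe set gave 28194 and 21075 (0.42). Each of the 9 lay in the same direction on its brightest probe set. Of the 9, 2 (22.2%) exceeded 0.32, about the 22.5% of all named genes that did.

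Cytochrome c, which shuttles electrons from complex III to cytochrome c oxidase, was among the higher members. Cycs, its somatic gene, read 64049 in wild type and 50787 in null on the brightest probe set (0.33, 1.26-fold). Its next probe sets read 47437 and 30312 (0.65, 1.56-fold) and 19654 and 13127 (0.58). All 3 pointed the same way, and the brightest gave the smallest difference of the 3. Another was under the floor in null.

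Complex V, the ATP synthase, had a median log2 ratio of 0.15 over 17 genes, or 1.11-fold, which lay 0.17 above all named genes, and 13 of the 17 were positive. The catalytic head and central stalk had a median of 0.17. Atp5a1, the alpha subunit of the head, read 66793 in wild type and 56073 in null (0.25), and Atp5d, the delta subunit of the stalk, read 45328 and 38287 (0.24). Atp5b, the beta subunit that holds the catalytic sites, read 56286 and 56356 (-0.00). On these probe sets the alpha and beta subunits of the head did not show the same ratio, by a gap close to the scatter between probe sets. The second probe set of Atp5a1 lay nearer to Atp5b, at 29859 and 27847 (0.10).

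The remaining parts of the ATP synthase span the membrane or hold the head in place. The rotating c ring is made of 1 protein encoded by 3 genes, Atp5g1, Atp5g2 and Atp5g3, which differ in their import sequences. Atp5g1 read 33267 and 28482 (0.22), Atp5g2 read 20890.1 and 19331 (0.11), and Atp5g3 read 98228 and 93847 (0.07). All 3 were positive. The 5 membrane accessory genes were also all positive, with a median of 0.16, and Atp5k, the e subunit that helps the enzyme form dimers, was the highest of complex V at 44683 and 37103 (0.27, 1.20-fold). The peripheral stalk keeps the head from turning, and its 4 genes had a median of -0.04 on their brightest probe sets. Atp5h read 53488 and 57904 (-0.11), with 45761 and 44151 (0.05) from its second probe set. Atp5pb read 56494 and 57067 (-0.01), with 31932 and 27611 (0.21) from its second. Atp5o was lower on both of its probe sets, the brighter at 33784 and 35261 (-0.06), and Atp5j read 36862 and 32621 (0.18). The median became 0.03 with the median over probe sets. Without probe sets ending in _x_at, _s_at or _a_at it was 0.18, with 3 of 3 genes positive, beside 0.13 for the head and central stalk, 0.09 for the c ring and 0.17 for the membrane accessory genes. Neither its sign nor its place among the parts of complex V is settled by these arrays.

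Among genes that bring electrons to coenzyme Q from fatty acid oxidation, Etfdh and Etfb had larger ratios than any subunit gene of the complexes, and Etfa did not. Etfdh, the dehydrogenase that passes electrons from ETF to coenzyme Q, read 24956 in wild type and 5858 in null (2.09, 4.26-fold). Etfb, the beta subunit of ETF, read 44423 and 18236 (1.28, 2.44-fold), while Etfa, its alpha subunit, read 34238 and 28231 (0.28, 1.21-fold). Gpd2, which feeds electrons from glycerol 3-phosphate, read 4587 and 2921 (0.65, 1.57-fold). Dhodh, of pyrimidine synthesis, had a ratio of -0.06, and Sqor, of sulfide oxidation, -0.28. Of the 7 genes listed 6 were measured, with a median of 0.46. The 3 at least 1.5-fold higher (50%, where 11.5% of all named genes were) were Etfdh, Etfb and Gpd2.

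Coenzyme Q synthesis, measured for 11 of 12 listed genes, had a median of 0.18, with 0 genes at least 1.5-fold higher and 1 lower. Over all named genes the shares were 11.5% and 10.2%. The lower one was Coq10a, a coenzyme Q binding protein, at 634.3 and 1236.7 (-0.96). Assembly factors outside the Ndufaf series were measured on both arrays for 19 of 20 listed genes. Their median was 0.11, with 6 at least 1.5-fold higher (31.6%) and 1 lower, where 11.5% and 10.2% of all named genes were. The higher ones were Tmem126b, Foxred1 and Acad9 for complex I, Sdhaf2 for complex II, and Tmem70 and Atpaf2 for complex V. Tmem126b read 808.2 and 350.3 (2.31-fold), and Sdhaf2, which attaches the flavin to Sdha, read 4492 and 2276 (1.97-fold). Foxred1 (1.78-fold), Tmem70 (1.70-fold), Acad9 (1.63-fold) and Atpaf2 (1.61-fold) followed. Probe sets disagreed in part, since a second one gave 0.22 for Sdhaf2 and -0.08 for Acad9. The lower one, Ttc19 of complex III, read 561.2 and 877.2 (-0.64), and its other probe set gave 0.35. These genes varied more than the subunits, with a standard deviation of 0.49 across genes against 0.18 for the subunits.

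Regulators of mitochondrial biogenesis did not share 1 direction. Over 11 measured genes the median was -0.11, with 1 at least 1.5-fold higher (9.09%) and 1 lower, where 11.5% and 10.2% of all named genes were. Ppargc1a, the coactivator PGC-1α, read 700.7 and 682.9 (0.04), with 0.41 and -0.50 from its other probe sets. Ppargc1b, its relative PGC-1β, read 816.4 and 1766 (-1.11, 2.16-fold lower). Nrf1, the factor whose core motif stands before Cycs and Sdhb, read 745.2 and 375.0 (1.99-fold higher), but another of its probe sets read 90.5 and 702.3. Gabpa (0.05) and Esrra (-0.11), factors for the other motifs, and Tfam (0.15), which packages and transcribes mitochondrial DNA, lay near zero. Messenger levels say nothing of the activity of these factors.

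**Figure D4:**
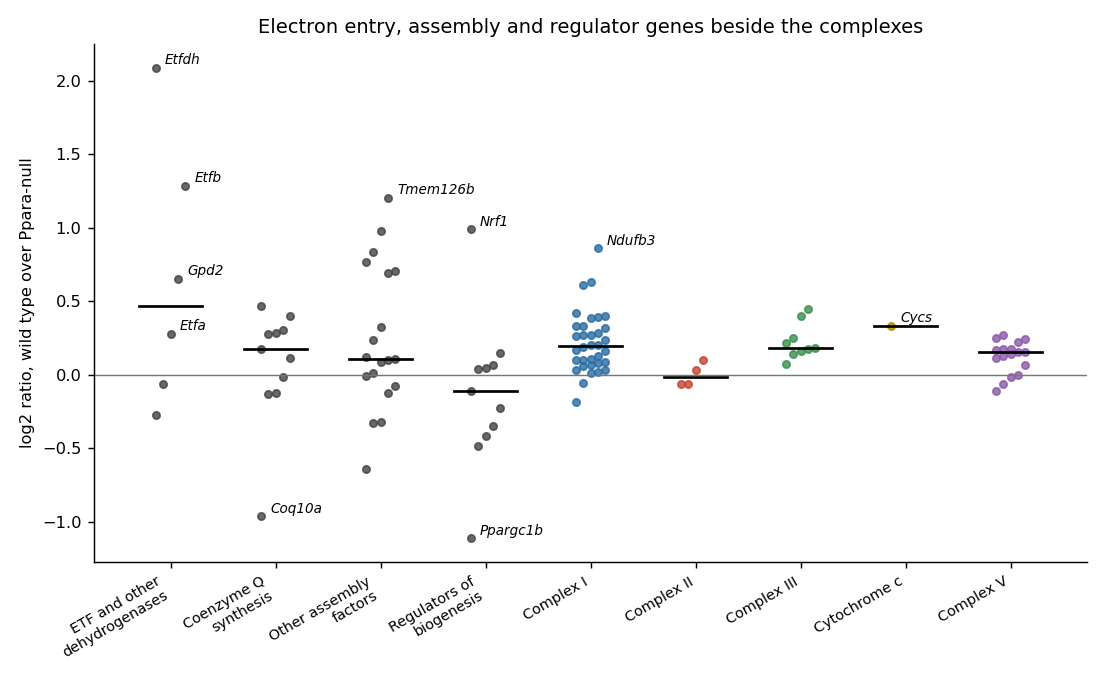
Log2 ratio of wild type over Ppara-null, 1 point per measured gene, for the lists of electron entry to coenzyme Q, coenzyme Q synthesis, other assembly factors and regulators of biogenesis (grey), beside the subunit genes of each complex (coloured), with black bars at the medians. Etfdh at 2.09 and Etfb at 1.28 lie above every subunit gene, of which Ndufb3 is the highest at 0.86.

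The order of the complexes changed little with processing in 1 respect: complex II was the lowest under every setting tried. Without the control scaling, the medians ran from 0.16 to 0.25 for complex I, -0.05 to 0.06 for complex II, 0.18 to 0.28 for complex III and 0.15 to 0.21 for complex V. Complexes I, III and V did not keep a fixed order among themselves. Measured against the median of all named genes under the same setting, control scaling included, complex I lay 0.16 to 0.26 higher, complex III 0.16 to 0.31 higher and complex V 0.13 to 0.22 higher, while complex II lay between -0.04 and 0.06. Whether complex II differs from the others beyond the spread between mice cannot be judged from 1 pool per genotype, and complex II has 4 genes only.

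**Figure D5:**
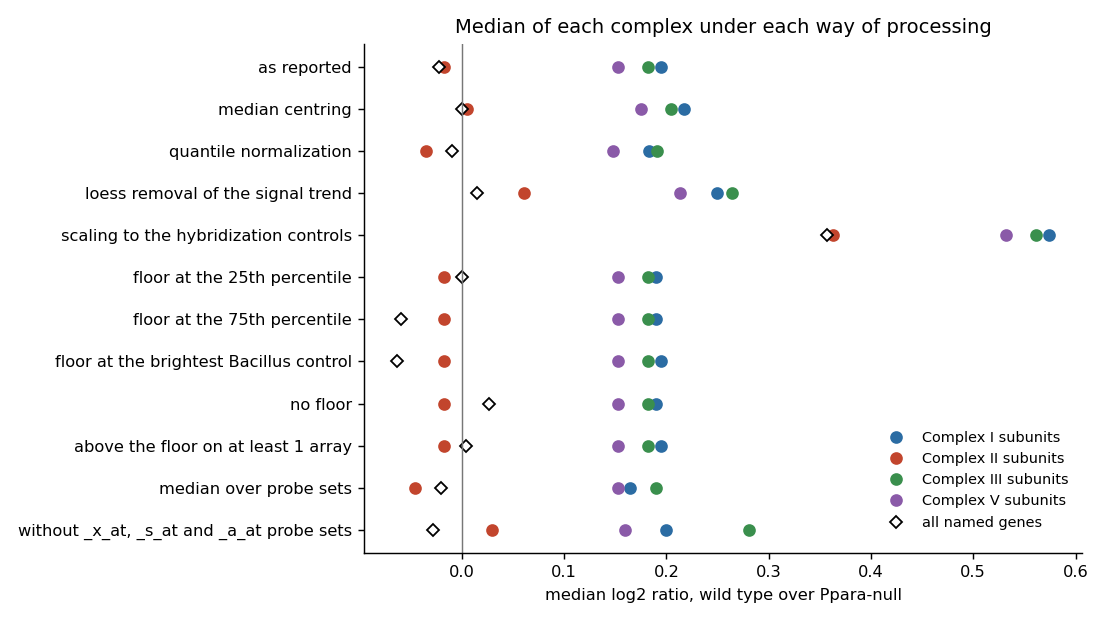
Median log2 ratio of wild type over Ppara-null for the subunit genes of each complex (filled circles) and for all named genes (open diamonds), in 1 row for each way of scaling, setting the floor or choosing probe sets. Complexes I, III and V lie to the right of the diamond in every row, and complex II lies within 0.06 of it in every row.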

How the data were processed

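Liver RNA pools of 3 mice per genotype were hybridised to 1 Affymetrix array each. The deposited values are linear signal intensities, 1 for each probe set and array, which per the labels come from Affymetrix's statistical algorithm scaled to a target of 1000; they were used without further scaling. The software version is not given in the sources used here. Of 45101 probe sets, 64 are controls, 34945 carry 1 symbol in the platform annotation, 932 several and 9160 none; all 75 member genes were found in the RefSeq table. Signals, floors, log2 ratios, medians and counts were computed with pandas 2.3.3 and numpy 2.4.6 in Python 3.11.15, with loess (span 0.3) from statsmodels 0.14.6, and tested on simulated data. No model or p-value was used. Roles and lists came from textbook knowledge.

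Genes named were Ppara, members at least 1.5-fold apart, the 3 highest and lowest per complex (all of complexes II and III), those with probe sets 1 log2 unit apart, Ndufa4, Ndufa4l2, the c ring genes, Cycs, the ETF genes, Ppargc1a, Nrf1, Gabpa, Esrra, Tfam and listed genes at least 1.5-fold apart; others were named after their values were seen. The fold threshold of 1.5 was set because earlier results showed none at 2-fold. The members and lists were chosen with earlier results of these data known. Bright genes, cytochrome c oxidase and ribosomal lists, the cyclic AMP element and the distance to all genes were added after seeing the data. Alternatives were median centring, quantile normalization, loess, scaling to spiked controls, a floor at the 25th percentile, the 75th percentile or the brightest Bacillus control, no floor, genes above the floor on at least 1 array, complex I without Ndufa4, the median over probe sets and omission of probe sets ending in _x_at, _s_at or _a_at.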

Additional observations from a re-analysis of the deposited data

How the results depend on the processing

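Scaling to the 18 hybridization controls moved the medians of the complexes most. They became 0.57 for complex I, 0.36 for complex II, which changed sign, 0.56 for complex III and 0.53 for complex V, the median of all named genes moved to 0.36, and 27 members were at least 1.5-fold higher, where 30.2% of all named genes then were. The complex II median was also just above zero with median centring (0.01) and loess (0.06). Without probe sets ending in _x_at, _s_at or _a_at it was 0.03. A threshold of 2-fold left 0 members higher, where 3.61% of all named genes were. One at a log2 ratio of 0.32 gave 13 (17.8%), where 22.5% of all named genes were higher. The count at least 1.5-fold lower was 1 with a floor at the 25th percentile (Ndufb4, where 14.9% of all named genes were), 2 with no floor (with Ndufa4l2 added, against 19.8%) and 1 without the probe sets ending in _x_at, _s_at or _a_at (Ndufb8, over 54 members, against 10.5%). The probe set behind Ndufb4 was dim, and the bright ones it shares with its copies were slightly higher in wild type. No other setting moved a complex's median by more than 0.1. Outside the control scaling, the share of positive members ran from 82.2% to 91.8%. Values of single named members were compared with the reported ones, 1 value per gene and setting. Of these, 277 shifted by less than 0.1 or stayed at least 1.5-fold higher. Some of the 277 still changed sign near zero, as Sdhb did with loess (0.02), or grew, as Ndufb3 did with the control scaling (1.24). Another 36 moved further, 9 passed 1.5-fold only with the control scaling, and 1, Ndufs4, dropped to 0.54 with the median over probe sets. No paired analysis was possible because each group has 1 array. The cause of these shifts was not tested, and signals near the floor limit the dimmest assembly factors and regulators.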

Other observations

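Other mitochondrial gene groups, listed after the data were seen, give a frame for the small positive ratios. The subunit genes of cytochrome c oxidase (Cox4 to Cox8), the enzyme that follows cytochrome c, were measured on both arrays for 12 of 17 genes. Their median log2 ratio was 0.19 and 9 (75%) were positive, where 47.8% of all named genes were. At least 1.5-fold higher were 2 of them (16.7%), and 0 were lower by as much, where 11.5% and 10.2% of all named genes were. Cox6b2, an isoform best known from the testis, read 17897 in wild type and 499.3 in null, a log2 ratio of 5.16 (35.8-fold). Cox6a2, the isoform of heart and skeletal muscle, read 663.4 and 435.8 (0.61). The ratio of Cox6b2 was far outside the range of the 73 members, of which Ndufb3 at 0.86 was the highest.

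The genes for proteins of the mitochondrial ribosome (Mrpl and Mrps), which translates the mitochondrially encoded subunits, were measured for 76 of 76. Their median was 0.10 and 49 (64.5%) were positive, where 47.8% of all named genes were. At least 1.5-fold higher were 5 of them (6.58%), fewer than the 11.5% of all named genes. By as much 0 were lower, where 10.2% of all named genes were. The 5 higher ones were Mrpl11 (0.79), Mrpl2 (0.77), Mrpl17 (0.70), Mrpl33 (0.60) and Mrpl37 (0.59), all of the large ribosomal subunit. Both groups come from the same pair of arrays and scaling as the members, and no test between them was made.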
